A study of Mus musculus with 4 samples.

Results

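The genes described are 10 feedback regulators and transcriptional outputs of the RAS to ERK mitogen-activated protein kinase (MAPK) pathway, taken by symbol from the count tables of a mouse liver RNA-sequencing study: Dusp4, Dusp5, Dusp6, Spry1, Spry2, Spry4, Spred1, Etv4, Etv5 and Phlda1. All 10 were found among the 25793 gene symbols in each table, and all 10 had enough counts to be tested. The study compared liver tumours from mice heterozygous for beta-2 spectrin (beta-2SP+/-) and for SMAD3 (SMAD3+/-), 2 libraries called tumours 1 and 2, with normal liver of a mouse of the same double heterozygous genotype, 1 library, and with wild type normal liver, 1 library. Beta-2 spectrin (Spnb2 in the tables) is an adaptor of SMAD3, which carries TGF-beta signals to the genome. The normal double heterozygous mouse is labelled with the same alleles as the tumours. The labels used here give no strain, age or number of animals, so p-values measure only the spread between these libraries.

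The ERK pathway carries signals of growth factor receptors through RAS, RAF and MEK to the ERK kinases, and one of its general features is that active ERK induces genes that turn the pathway down again. The DUSP genes encode phosphatases that inactivate MAP kinases, the Sprouty (Spry) and Spred genes encode inhibitors acting between receptors and RAF, and Etv4 and Etv5 encode ETS transcription factors whose transcription follows ERK activity in many tissues. Because these transcripts follow the pathway's activity in many cell types, they are often read together as a measure of it. They do not measure ERK phosphorylation, which was not assayed here.

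Promoter sequence from RefSeq (GRCm38.p6, 250 bases before to 50 after the start, 5′ to 3′) was used for 6 of the members in 7 windows. These are Dusp5, Dusp6, Spry1, Spry2, Spred1 and Etv5, with 2 windows for Etv5. The windows were searched on both strands for CCGGAA, an extended form of the ETS core, and for the AP-1 site TGANTCA. The cyclic AMP response element TGACGTCA and the CArG box, the binding motif of serum response factor, were searched likewise. Shorter forms of the ETS core were not searched for. Shown are the windows of 2 Sprouty genes and 2 phosphatase genes that stood higher in both tumours, with matches in capitals: Spry2 at chr14:105896770-105897069 (minus strand), Spry1 at chr3:37639697-37639996 (plus strand), Dusp5 at chr19:53528895-53529194 (plus strand) and Dusp6 at chr10:99262981-99263280 (plus strand).
Spry2: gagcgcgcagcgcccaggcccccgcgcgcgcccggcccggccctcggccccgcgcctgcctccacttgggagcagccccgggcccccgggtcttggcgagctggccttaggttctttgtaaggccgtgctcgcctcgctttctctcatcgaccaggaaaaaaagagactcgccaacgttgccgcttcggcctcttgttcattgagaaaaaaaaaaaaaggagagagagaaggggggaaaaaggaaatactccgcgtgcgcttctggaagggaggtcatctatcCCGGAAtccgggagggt
Spry1: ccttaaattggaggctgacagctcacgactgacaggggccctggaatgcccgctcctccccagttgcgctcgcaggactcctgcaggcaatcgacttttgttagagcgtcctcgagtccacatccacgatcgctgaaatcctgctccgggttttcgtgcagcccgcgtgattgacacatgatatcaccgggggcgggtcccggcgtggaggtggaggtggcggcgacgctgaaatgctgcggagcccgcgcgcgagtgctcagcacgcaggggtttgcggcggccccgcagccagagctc
Dusp5: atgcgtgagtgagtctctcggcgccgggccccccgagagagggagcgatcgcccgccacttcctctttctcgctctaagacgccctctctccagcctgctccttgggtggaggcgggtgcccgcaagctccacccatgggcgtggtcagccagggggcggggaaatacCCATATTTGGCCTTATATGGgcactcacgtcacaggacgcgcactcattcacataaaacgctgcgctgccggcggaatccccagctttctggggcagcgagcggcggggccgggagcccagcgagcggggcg
Dusp6: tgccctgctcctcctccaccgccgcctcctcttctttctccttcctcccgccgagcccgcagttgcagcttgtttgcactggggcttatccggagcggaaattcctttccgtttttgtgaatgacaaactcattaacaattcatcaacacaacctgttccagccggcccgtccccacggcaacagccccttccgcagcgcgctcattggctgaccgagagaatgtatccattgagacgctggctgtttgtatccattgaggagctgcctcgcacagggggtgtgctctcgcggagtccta
The Dusp5 window held 2 CArG boxes that abut each other, at -82 and -72 from the start, and no other of the 7 windows held one. Of all 32851 promoter windows of the same length, 1.63% held at least 1 CArG box. The Spry2 window held 1 match to CCGGAA, 34 bases into the transcript, a motif found in 14.9% of all windows. AP-1 sites (7.81% of all windows) and cyclic AMP response elements (1.79%) were in none of the 7. These are matches of letters only, and binding was not measured.

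Gene counts per library were 11049931 and 13295216 in the tumours and 15950426 and 18448621 in the double heterozygous and wild type normal tables. The normal tables held counts closer than separate libraries would give: identical counts were found for 56.9% of 2483 genes averaging 1 to 5 counts, where Poisson sampling gives 22.6%, so their rounded mean was used as 1 normal library. Of the 10 members, 2 had equal counts, and the wild type count was at or above the double heterozygous count in all 10. The wild type table also held more gene counts, and what depth alone would give for the members was not tested. Hepatocyte markers, which define the labelled tissue, were nearly absent from the tumours: 6 genes (among them Alb and Cyp2e1) summed to 11.7 and 48.7 CPM (counts relative to the TMM-scaled size of the library) in tumours 1 and 2 against 190100 CPM in normal liver. The submitters' descriptions carry the word Tcell for the tumours, but 8 T cell markers summed to 9 and 12 counts in tumours 1 and 2, with Cd3d, Cd3e, Cd3g, Cd4 and Cd8a at 0 in both. Bile duct markers stood at 2442 and 2114 CPM in the tumours against 41.0 CPM in normal liver, though Epcam, 1 of the 5, had 356 counts in tumour 1 and 4 in tumour 2. Fibroblast and stellate cell markers stood at 4.24 and 693 CPM against 93.1 CPM, with 2 of 6 below normal liver in both tumours (Dcn at 1.28 and 8.27 against 64.9 CPM, and Lrat at 0 counts). Markers of dividing cells stood at 99.0 and 1854 CPM against 5.04 CPM. Endothelial markers were at 0.539 and 1.13 CPM against 238 CPM, with 5 of 5 below normal liver in both tumours, macrophage markers at 13.6 and 4.83 CPM against 152 CPM, with 5 of 6 below and Clec4f and Cd163 at 0 counts, and B cell markers at 0 and 1 counts. The part of these differences in the results below was not tested. In bulk tissue, a change in the number of cells of a type and a change in RNA per cell cannot be told apart. The targeted genes were not lower in the tumours, with Spnb2 at 16607 and 19149 counts against 3364 and 3549 in the normal tables and Smad3 at 4521 and 2174 against 426 and 460, and neither difference passed the test (edgeR adjusted p = 0.258 and 0.207).

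The members differed among themselves between tumour and normal liver. Dusp4 rose, and Spry2 lay far above normal liver but just missed the threshold. Of the others, none of which passed, Etv4 was far higher in tumour 2 than in tumour 1, Spry1 and Dusp5 were 7.06-fold and 4.87-fold higher, Spred1, Dusp6 and Etv5 3.38-fold, 1.93-fold and 1.48-fold higher, and Spry4 and Phlda1 were lower in both tumours. By edgeR's quasi-likelihood test with Benjamini-Hochberg adjustment over 14468 genes, 1 of 10 members passed an adjusted p of 0.05 as higher and 0 as lower, where 7.42% of all genes tested were called, 2.23% higher and 5.19% lower. Before adjustment, 4 members had a p under 0.05 as higher (Dusp4, Spry1, Spry2 and Etv4) and 2 as lower (Spry4 and Phlda1), against 12.5% and 15.5% of all genes, and DESeq2 called 4 higher and 2 lower, against 11.6% and 12.2%. Both tumours lay above normal liver for 8 members and below it for 2, where 43.1% and 40.1% of all genes did so. The median log2 fold change was 2.02 over the members and 0.19 over all genes tested.

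**Figure D1:**
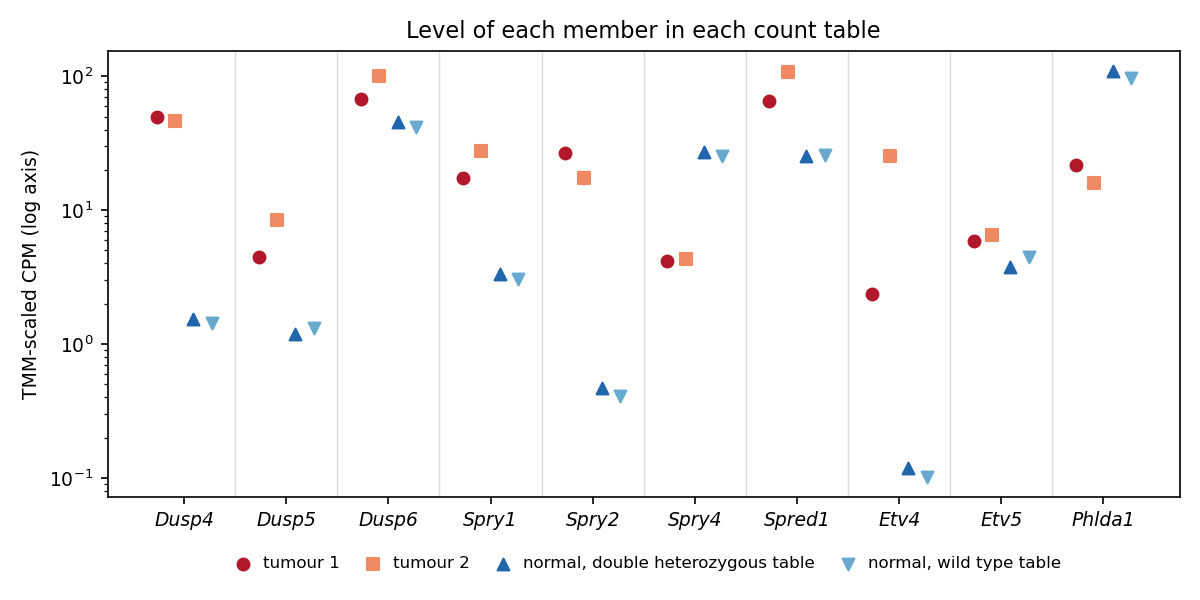
TMM-scaled CPM (log axis) of the 10 members in tumour 1, tumour 2 and the double heterozygous and wild type normal tables; each point is 1 table, and both normal tables share the scaling factor of their mean. The normal points of a gene nearly coincide, the tumour points lie above them for 8 genes and below them for Spry4 and Phlda1, and the tumour points of Etv4 are the farthest apart.

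Among the phosphatases, Dusp4, which encodes a nuclear phosphatase of ERK and other MAP kinases, had 733 and 858 counts in tumours 1 and 2, against 13 in the double heterozygous and 14 in the wild type normal table. Both tumours were far above both normal tables and close to each other. Dusp4 stood at 47.7 ± 2.36 CPM in the tumours (SD, n = 2), compared with 1.53 CPM in normal liver. It rose 30.9-fold (log2 fold change 4.95, SE 0.77, edgeR adjusted p = 0.0410). Its call held in all 10 other settings that gave a test, with adjusted p between 2.42e-06 and 0.0431. None of its 31-base stretches of sequence occurs in another gene of the GENCODE M21 transcripts.

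Dusp6 encodes the cytoplasmic phosphatase that acts on ERK with high selectivity, and had the highest level per length of the 3 in every library. It had 1012 and 1866 counts in the tumours, against 385 and 409 in the double heterozygous and wild type normal tables. Both tumours were higher, by 1.93-fold (log2 fold change 0.95, SE 0.60, edgeR adjusted p = 0.360). This size depends on scaling, and without scaling the log2 fold change of Dusp6 was 2.33. Dusp5, which encodes the nuclear ERK-selective phosphatase, had 66 and 157 counts in the tumours, against 10 and 13 in the same normal tables. Its groups did not overlap, and the difference did not pass the test (log2 fold change 2.28, SE 1.23, edgeR adjusted p = 0.296). Without tumour 2 the log2 ratio of Dusp5, taken with a prior count of 2, was 1.64. Within a library, where scaling cancels, Dusp4 had 0.724 and 0.460 counts per Dusp6 count in tumours 1 and 2, against 0.0338 and 0.0342 in the double heterozygous and wild type normal tables.

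Of the 3 Sprouty genes, Spry4 had the most counts in both normal tables and the fewest in both tumours, while Spry2 and Spry1 were higher in both tumours. Spry2 had 394 and 322 counts in the tumours, against 4 in each normal table. Both tumours were far above normal liver, at 21.9 ± 6.55 CPM (SD, n = 2) against 0.438 CPM, a ratio of pooled counts of 48.8 (exact 95% counting interval 19.0 to 180). With a log2 fold change of 5.61 (SE 1.02), Spry2 missed the threshold at an edgeR adjusted p of 0.0532, and it was called in 8 of the 10 other settings, with adjusted p between 0.000103 and 0.0578. Without tumour 1 its log2 ratio, taken with a prior count of 2, was 4.89. Spry1 had 257 and 516 counts in the tumours, against 28 and 30 in the double heterozygous and wild type normal tables. Its groups did not overlap either, at 7.06-fold (log2 fold change 2.82, SE 0.83, edgeR adjusted p = 0.124).

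Spry4 was lower in both tumours. It had 62 and 81 counts in the tumours, against 230 and 250 in the double heterozygous and wild type normal tables. Both tumours lay below normal liver and close to each other, at 4.26 ± 0.121 CPM (SD, n = 2) against 26.3 CPM (log2 fold change -2.62, SE 0.70, edgeR adjusted p = 0.106). The place of Spry4 below both of the others in the tumours does not depend on scaling. Of the reads assigned to Spry2 and Spry4 together, Spry2 held 86.4% and 79.9% in tumours 1 and 2, against 1.71% and 1.57% in the double heterozygous and wild type normal tables. Of those of Spry1 and Spry4, Spry1 held 80.6% and 86.4% in the tumours, against 10.9% and 10.7% in the same normal tables. Spry2 and Spry1 kept no common order in the tumours: of their reads together, Spry2 held 60.5% in tumour 1 and 38.4% in tumour 2, against 12.5% and 11.8% in the same normal tables. These shares are descriptions with no test.

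Spred1, which encodes the adaptor that brings the RAS inhibitor neurofibromin to the membrane, had 974 and 1997 counts in the tumours, against 215 and 251 in the double heterozygous and wild type normal tables. Both tumours were above normal liver, at 3.38-fold (log2 fold change 1.76, SE 0.66, edgeR adjusted p = 0.182). Nf1, the gene of neurofibromin itself, stood at 142 and 115 CPM in the tumours against 166 CPM in normal liver (log2 fold change -0.38, SE 0.54, edgeR adjusted p = 0.679).

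**Figure D2:**
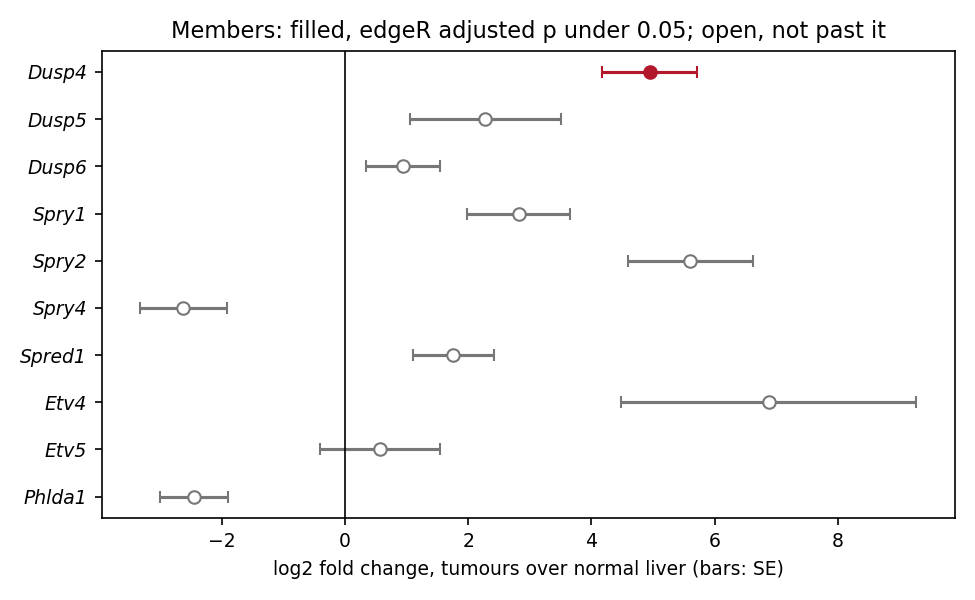
Log2 fold change of each member, both tumours over the normal library, with its standard error; the filled point passed an edgeR adjusted p of 0.05 and open points did not. Dusp4 at 4.95 is the filled point, Spry2 and Etv4 have larger estimates with wider errors, and Spry4 at -2.62 and Phlda1 at -2.45 lie below 0.

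Of the ETS factor genes, Etv4 differed between the tumours beyond counting error, and Etv5 did not. Etv4 had 35 counts in tumour 1 and 475 in tumour 2, against 1 in each normal table. Both tumours were above normal liver, but tumour 2 was 10.8-fold above tumour 1 after scaling. The ratio of pooled tumour counts to normal liver was 139 (exact 95% counting interval 24.8 to 5500), and the fitted log2 fold change of 6.88 (SE 2.39, edgeR adjusted p = 0.162) depends on how a count of 1 is treated. Leaving out tumour 2 gave a log2 ratio of 3.19 and leaving out tumour 1 gave 6.65, both taken with a prior count of 2. That prior weighs on a normal count of 1, so these ratios are not on the scale of the fit. Etv5, the close relative of Etv4, had 87 and 121 counts in tumours 1 and 2, against 32 and 44 in the double heterozygous and wild type normal tables. Its tumour and normal levels of 6.18 ± 0.448 CPM (SD, n = 2) and 4.17 CPM differed by less than the standard error of the comparison (log2 fold change 0.57, SE 0.98, edgeR adjusted p = 0.735).

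Phlda1 encodes a pleckstrin homology-like protein, and its transcript is induced by growth factor signalling in many cells. It had 321 and 299 counts in the tumours, against 928 and 952 in the double heterozygous and wild type normal tables. Both tumours were lower, at 18.8 ± 3.94 CPM (SD, n = 2) against 103 CPM (log2 fold change -2.45, SE 0.55, edgeR adjusted p = 0.0773). Of the counts of all 10 members, Phlda1 alone held 8.15% and 4.47% in tumours 1 and 2, against 50.3% and 48.4% in the double heterozygous and wild type normal tables. Its relative Phlda3, a p53 target that inhibits AKT, had 1305 and 1474 counts in the tumours, against 2 and 3 in the same normal tables, and rose (ratio 379, exact 95% counting interval 105 to 3130, edgeR adjusted p = 0.0229). Phlda2, an imprinted growth regulator, had 0 and 114 counts in the tumours and 0 in both normal tables, and did not pass (edgeR adjusted p = 0.357). Without tumour 1 the log2 ratio of Phlda3, taken with a prior count of 2, was 7.76, and without tumour 2 it was 7.83, against a fitted log2 fold change of 8.52.

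**Figure D3:**
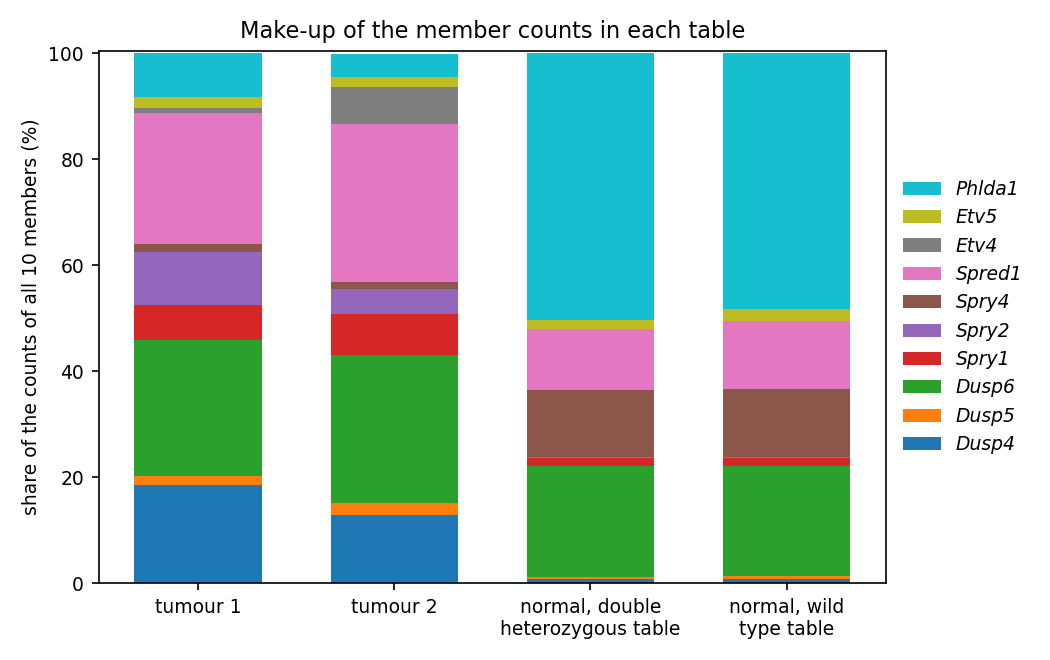
Share of the summed counts of the 10 members held by each gene, in percent, for each count table. Phlda1 and Spry4 take up 9.72% and 5.68% of the bars of tumours 1 and 2, where Dusp4, Dusp6 and Spred1 hold most, against 62.7% and 61.1% of the double heterozygous and wild type normal bars.

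Counting limits touch 4 members. Between 21.2% and 30.8% of the 31-base stretches of Dusp5, Spry1, Etv5 and Phlda1 also occur in another gene of the GENCODE M21 transcripts (GRCm38, another build than the counts). For Dusp5, Spry1 and Phlda1 that gene overlaps on the opposite strand (AC137853.2, Gm42922 and Gm28592), and since no source used here says whether counting used strand, reads of both genes cannot be told apart. For Etv5 it is Gm4798. Counts of these 4 members are therefore uncertain. The other 6 shared at most 0.878% of their stretches.

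Levels were compared between genes per kilobase of the longest coding transcript in GENCODE M21. In the tumours the order by mean level was Dusp6 at 30.1 CPM per kb, Dusp4 at 17.4, Spred1 at 14.4, Spry2 at 10.5, Phlda1 at 9.66, Spry1 at 8.12, Etv4 at 5.81, Dusp5 at 2.60, Etv5 at 1.55 and Spry4 at 0.896 CPM per kb. The tumour ranges of neighbours in this order overlapped, except those of Dusp6 and Dusp4, of Dusp5 and Etv5 and of Etv5 and Spry4. Within each tumour Spry2 also lay above Phlda1, at 12.7 against 11.1 CPM per kb in tumour 1 and 8.28 against 8.23 in tumour 2. In normal liver the order was Phlda1 at 52.9 CPM per kb, Dusp6 at 15.6, Spry4 at 5.53, Spred1 at 4.25, Spry1 at 1.15, Etv5 at 1.05, Dusp4 at 0.560, Dusp5 at 0.532, Spry2 at 0.210 and Etv4 at 0.0458 CPM per kb, from 1 library with no spread. Spry4 was thus last of the 10 in the tumours and among the 3 highest in normal liver.

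The tumours were also set against each other, 1 library against 1 with no replicate check. After scaling, 1 member differed over 2-fold, Etv4, higher in tumour 2 (log2 ratio of tumour 2 to tumour 1 of 3.35, 95% counting interval 2.94 to 3.97), where 15.6% of 9242 genes with at least 10 CPM in either tumour were over 2-fold higher and 11.9% over 2-fold lower. Dusp5, Spry4 and Etv5 lay below that level in both tumours and were not among these genes. Dusp5, Spred1, Spry1 and Dusp6 were higher in tumour 2 beyond counting error, with log2 ratios of 0.90, 0.71, 0.67 and 0.55. Spry2 and Phlda1 were lower in tumour 2 beyond counting error, at -0.62 and -0.43, and the counting intervals of Dusp4, Spry4 and Etv5 included 0. Tumour 2 is the library with more fibroblast and dividing cell transcripts, 693 and 1854 CPM against 4.24 and 99.0 CPM in tumour 1, and their part in these ratios was not tested.

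Between the normal tables, no member differed over 2-fold, where 4.42% of 8267 genes with at least 10 CPM in either table did. Members below that level, such as Spry2 and Etv4, were not among these genes. The log2 ratios of the double heterozygous to the wild type table lay between -0.16 (Etv5) and 0.25 (Phlda1), around a median of 0.11 over all genes compared. Given the shared counts of these tables, this comparison cannot show how the genotype alone affects the members.

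Other genes of the pathway were taken from lists by function. Of 10 further MAPK phosphatase, Sprouty and Spred genes, 8 could be tested and 0 passed the edgeR test, where 7.42% of all genes did. By that test before adjustment, 3 had a p under 0.05 as higher and 0 as lower, against 12.5% and 15.5% of all genes. The median log2 fold change was 1.18. Dusp1, an immediate early phosphatase of p38, JNK and ERK, stood at 109 and 91.8 CPM in the tumours against 91.4 CPM in normal liver (log2 fold change 0.13, SE 0.54), and Dusp10, a p38 and JNK phosphatase, at 42.4 and 30.7 CPM against 3.95 CPM (log2 fold change 3.21, SE 0.74, edgeR adjusted p = 0.0816). Dusp16 and Spred2 had log2 fold changes of -0.26 (SE 0.89) and 0.19 (SE 0.71). Dusp16 was unequal between the tumours, with a log2 ratio of -1.45 without tumour 1 and 0.38 without tumour 2. Dusp9, singled out after its values were seen, was, like Etv4, higher in tumour 2, with 23 and 293 counts in tumours 1 and 2 and 0 in both normal tables. Spry3, singled out in the same way, had 0 counts in all 4 tables.

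Of 12 other genes whose transcription is known to follow ERK, 3 rose and 1 fell, where 2.23% of all genes were called higher and 5.19% lower. Their median log2 fold change was 2.42. Ccnd1, which encodes cyclin D1, stood at 760 and 932 CPM in the tumours against 21.2 CPM in normal liver (log2 fold change 5.32, SE 0.88, edgeR adjusted p = 0.0456, with 22.3% of its 31-base stretches shared with another gene). Epha4, an ephrin receptor gene, had 3493 and 2075 counts in the tumours against 3 in each normal table (ratio 506, exact 95% counting interval 173 to 2450, edgeR adjusted p = 0.0303), and Ier3, an immediate early gene, had 2551 and 3124 counts in tumours 1 and 2, against 11 and 12 in the double heterozygous and wild type normal tables (ratio 129, exact 95% counting interval 73.7 to 250, edgeR adjusted p = 0.0252). Errfi1, which encodes the feedback inhibitor of the EGF receptor, fell to 73.1 and 84.2 CPM in the tumours, against 1919 CPM in normal liver (log2 fold change -4.61, SE 0.67, edgeR adjusted p = 0.0363, and 0.0503 without scaling). Epha2, Fos, Mcl1 and Myc did not pass, with log2 fold changes of 2.90 (SE 0.74), 1.93 (SE 0.93), 0.46 (SE 0.57) and 0.14 (SE 0.65). Without tumour 2 the log2 ratios of Fos and Myc were 0.90 and -0.35. Without tumour 1 that of Epha4, taken with a prior count of 2, was 7.87. Of the 12, 9 lay above normal liver in both tumours and 1 below, where 43.1% and 40.1% of all genes did so. By the edgeR test before adjustment, 6 had a p under 0.05 as higher and 1 as lower, against 12.5% and 15.5% of all genes.

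Of 18 genes of the cascade from adaptors and RAS to ERK, 0 passed the edgeR test, where 7.42% of all genes did. Their median log2 fold change was 0.63. By the edgeR test before adjustment, 1 had a p under 0.05 as higher and 0 as lower, against 12.5% and 15.5% of all genes. The gene with that unadjusted p, singled out after its value was seen, was Mapk3, which encodes ERK1, at 75.0 and 80.2 CPM in the tumours against 16.7 CPM in normal liver (log2 fold change 2.22, SE 0.60, edgeR adjusted p = 0.108). Map2k1, which encodes MEK1, had a log2 fold change of 0.82 (SE 0.61), the adaptor gene Shc1 1.43 (SE 0.58) and the phosphatase gene Ptpn11 0.69 (SE 0.62). Of 14 RAS inhibitor and ETS repressor genes, 0 passed the edgeR test, and 3 had an unadjusted p under 0.05 as higher and 0 as lower. Over all genes, 7.42% passed, and 12.5% and 15.5% had such an unadjusted p as higher and as lower. The median log2 fold change of the list was 0.65. The GTPase-activating protein genes Dab2ip and Rasa1 stood at 2.77 (SE 0.63, edgeR adjusted p = 0.0796) and 0.53 (SE 0.54) on the log2 fold change scale, and Pebp1, which encodes a RAF kinase inhibitor, at -0.58 (SE 0.54).

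Of 10 further ETS factor genes, 9 could be tested, with a median log2 fold change of 2.42. By the edgeR test before adjustment, 5 had a p under 0.05 as higher and 1 as lower, against 12.5% and 15.5% of all genes. After adjustment 1 rose, where 2.23% of all genes were called higher. It was Ehf, an epithelial ETS factor gene, with 7683 and 3262 counts in tumours 1 and 2, against 5 and 4 in the double heterozygous and wild type normal tables (log2 fold change 9.60, SE 1.45, edgeR adjusted p = 0.0388). Without tumour 1 its log2 ratio, taken with a prior count of 2, was 8.22. Ets2 and Ets1 stood at 2.67 (SE 0.76, edgeR adjusted p = 0.117) and 2.42 (SE 0.65, edgeR adjusted p = 0.106), Gabpa at 0.27 (SE 0.53) and Elk4, which works with serum response factor at CArG boxes, at -1.68 (SE 0.54, edgeR adjusted p = 0.143). Etv1, the remaining close relative of Etv4 and Etv5, singled out after its values were seen, had 0 and 28 counts in tumours 1 and 2, against 8 and 11 in the double heterozygous and wild type normal tables.

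The profile over the 3 libraries of the fit, averaged over the 10 members and centred, was nearest to those of Dnajc10, Elmo2, Eef1e1, C230052I12Rik and Nsmce1, at Euclidean distances of 0.0157 to 0.0368 on the log2 CPM scale. Among the members, Spred1 at 0.149 and Dusp5 at 0.363 lay nearest to that mean and Spry4 at 3.60 and Phlda1 at 3.54 farthest from it. Every member thus lay farther from the mean than the genes named, and the mean joins members that went in opposite directions. With 3 libraries and 14468 genes, some genes can lie close to such a mean, so this nearness does not show likeness to the members.

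**Figure D4:**
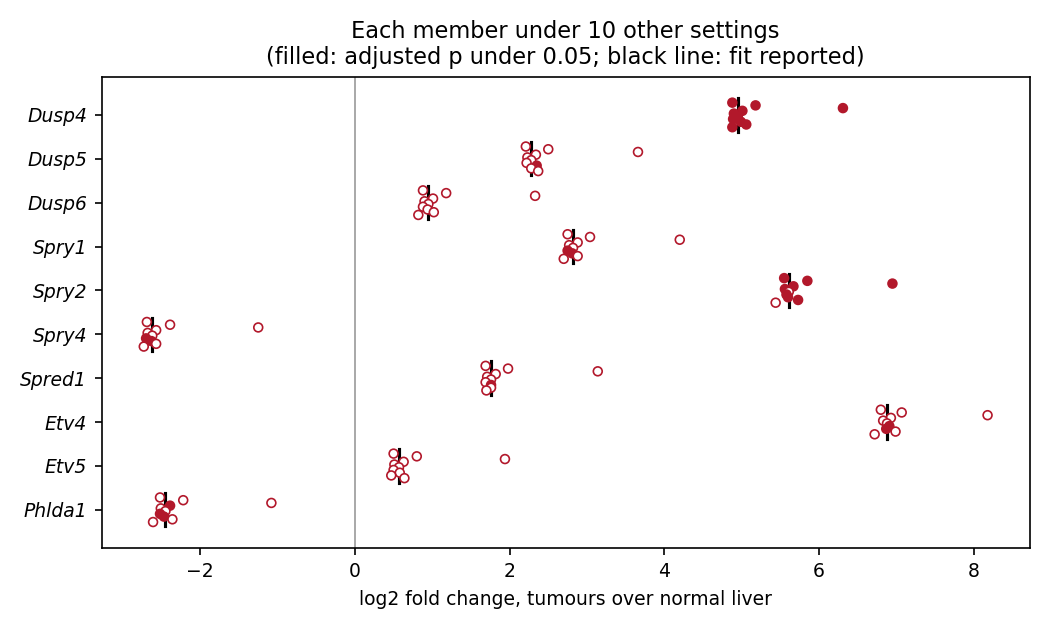
Log2 fold change of each member, tumours over normal liver, under 10 other settings (circles; filled where the adjusted p was under 0.05), with a black line at the value of the fit reported. Circles of Dusp4 are filled in all 10 settings and those of Spry2 in 8, while Dusp6 and Etv5 have none filled, and no member crosses 0.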

How the data were processed

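Libraries of 4 mouse liver RNA samples were prepared with an Illumina TruSeq kit, per the labels. The submitters' processing notes name mm9 and the tools FastQC, Trimmomatic, TopHat2 (2.0.10), HTSeq and DESeq2 without saying what each was used for. The deposited files hold unnormalized read counts by gene symbol for each library. The closing 5 lines of each file, which count alignments outside genes or without a unique place, were left out. They held 59.2% and 58.8% of all counted alignments in tumours 1 and 2, 76.0% in the double heterozygous and 62.3% in the wild type normal table.

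Both tumours were compared with the rounded mean of the normal tables with edgeR 4.0.16 in R 4.3.3 (filterByExpr with a minimum count of 10, TMM, glmQLFit, glmQLFTest, Benjamini-Hochberg over all genes tested, threshold 0.05). Only the tumours give a spread (1 residual degree of freedom), and normal liver is taken to vary likewise. The common dispersion was 0.442. Standard errors are |log2 fold change| / square root of F. Single libraries were compared by log2 ratios with a prior count of 2 and exact binomial intervals. Intervals cover counting error only. A minimum count of 50 or none, 3 other scalings, robust fitting, DESeq2 1.42.0 and left-out libraries were alternatives. The procedures were tested on simulated data. The simulated libraries shared the same composition apart from genes changed equally in both directions, so the scaling between tumours and normal liver was not tested by them. Named beside the members were the genes of each list that passed and the up to 4 others with the highest counts; exceptions are marked, and 1 gene that this rule names is not reported here. The members and lists were chosen with earlier results of these data known.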

Additional observations from a re-analysis of the deposited data

How the results depend on the processing

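The directions of the 10 members held in all 10 other settings with a test. The count of members called, 1 in the fit reported, was 2 with DESeq2 size factors, upper quartile scaling, no scaling or a minimum count of 50, where 9.34%, 7.61%, 7.65% and 10.3% of all genes tested were called. It was 3 without a filter (2 higher and 1 lower; 12.4% of all genes), 6 with DESeq2 (23.7%) and 8 with both normal tables as separate libraries (46%). Leaving out a normal table gave 1 to 2 members, the second being Spry2 without the double heterozygous table (adjusted p = 0.0484), where 8.67% of all genes were called, against 6.77% without the wild type table. Over all genes the count of 1073 of 14468 became 2286 of 18506 without a filter, 3368 of 14187 with DESeq2 and 6215 of 13511 with separate normal tables, whose shared counts lower the spread by construction, and lay between 973 and 1260 without a normal table. Of the calls over all genes, 322 were higher and 751 lower, against 635 and 472 without scaling, 1641 and 1727 with DESeq2 and 3058 and 3157 with separate normal tables. Upper quartile scaling moved the median log2 fold change of all genes by 0.23 and no scaling by 1.37, and the cause of the other differences was not tested. With no scaling, the log2 fold changes of Dusp6, Spry4 and Phlda1 were 2.33, -1.25 and -1.08. Without tumour 1 or tumour 2 the fit has no residual degrees of freedom. The log2 ratios of Dusp4 were then 4.77 and 4.86, as values with no test. They were taken with a prior count of 2, which draws them toward 0. Near 0, Dusp1 turned to -0.01 without tumour 1, and without tumour 2 Spred2 turned to -0.08, Dusp16 to 0.38 and Myc to -0.35. Smad3 was 1.25 without tumour 1. Of the other genes named, without scaling Dusp16, Nf1 and Pebp1 turned to log2 fold changes of 1.09, 0.99 and 0.79, none of them called in any setting, and Errfi1 lost its call. No paired analysis was possible because the labels used here do not link a tumour to a normal sample of the same animal. The depth limits Etv4 and Spry2 most, with 1 and 4 counts in normal liver. No group held the 4 samples that the search for outlying samples needs.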
